A study of Mus musculus with 12 samples.

Results

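C2C12 myoblasts kept in PFI-3 were followed from 24 h to 48 h of differentiation. C2C12 is a mouse myoblast line that forms myotubes in culture. The comparison rests on 4 of the 12 libraries of the series, chosen by treatment and time alone: libraries A and B taken 24 h after induction (DM 24h) and libraries A and B taken 48 h after induction (DM 48h), all from cells given 50 uM PFI-3. The matching vehicle (DMSO) libraries, 4 in number, served as the reference. Proliferating cells in growth medium (GM) with 10% fetal bovine serum, 2 libraries for each treatment, entered the fit and give the starting level of a gene. All cells came from 1 immortalized line. At 90% confluency they were moved to medium with 2% horse serum and fresh insulin. DMSO or PFI-3 was present from 12 h before that change and was renewed every 24 h, so the insulin, the low serum and the handling are shared by the PFI-3 and DMSO cells. The labels call A and B biological duplicates. They do not say whether a letter stands for the same passage or day across groups.

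Skeletal myoblasts stop dividing when growth factors are withdrawn, and the basic helix-loop-helix factors MyoD and myogenin then switch on muscle genes together with MEF2 proteins. Cells that have left the cell cycle fuse into multinucleated myotubes and assemble sarcomeres, the repeating units of thick myosin and thin actin filaments. The SWI/SNF complexes remodel chromatin at many muscle promoters, using BRM (gene Smarca2) or BRG1 (gene Smarca4) as the motor. Both ATPases carry a bromodomain, a fold that binds acetylated lysine, and PFI-3 is a small molecule that occupies this fold in BRM, in BRG1 and in the PBRM1 subunit. The question of the series is what these bromodomains contribute to muscle differentiation. The libraries bear on how cells mature on the second day when the compound is present throughout.

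The deposited tables hold 12576374 to 13658352 expected counts per library, and the 4 PFI-3 libraries span 12576374 to 12734463. The 12 tables list 16288 genes, of which 12545 passed the low-count filter and were tested. The SD over genes of the log2 ratio of library B to library A was 0.159 at 24 h and 0.144 at 48 h with PFI-3, against 0.367 and 0.333 in the growth-medium pairs. Levels below are FPKM (fragments per kilobase of transcript, scaled to the size of the library), given for library A and then library B. Fold changes, log2 changes and adjusted p-values come from edgeR's quasi-likelihood test on counts, with 2 libraries a group. The test reports no standard error (SE). The SE given below is the absolute log2 change divided by the square root of the F statistic. It is approximate, above all at few counts: for Mef2c it was 0.37 with PFI-3, 0.25 with DMSO and 0.78 for their difference. The threshold for a call was an adjusted p under 0.05.

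Under PFI-3 the second day changed 3429 genes: 1649 rose, which is 13.1% of the tested genes, and 1780 fell, which is 14.2%. Changes of at least 2-fold were mostly rises, with 585 genes higher (4.66%) and 149 lower (1.19%). Of the genes that rose, 85.0% also rose in DMSO cells over the same day, and of the genes that fell, 74.5% also fell there. The DMSO cells had more calls, with 3038 genes higher (24.2%) and 2997 lower (23.9%), and their median absolute log2 change was 0.331 against 0.216 with PFI-3. The balance of rises and falls depends on the method. With DESeq2's Wald test, 1511 rose and 1082 fell, so that 58.3% of calls were rises against 48.1% in the edgeR fit. Under DESeq2-style size factors 1904 rose and 1416 fell, and the median of all genes moved by only 0.041 log2 units. Leaving out 1 PFI-3 library lowered the counts by over 1.5 times in most cases: 1051 higher and 932 lower without library A at 24 h, 1062 and 935 without library B at 24 h, 1058 and 889 without library A at 48 h, and 1144 and 945 without library B at 48 h. In RNA from whole cultures, fewer cells of a type and less RNA per cell cannot be told apart.

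The promoters of 6 genes on which the account turns are shown first, from the RefSeq table for GRCm38.p6, a release of the assembly known as mm10. Each window runs from 250 bases before to 50 bases after the transcription start, 5′ to 3′ on the strand of the gene. Myog and Acta1 are shown for the muscle genes that rose, Ccnb1, Cdk1 and Mcm5 for the cell cycle genes that fell less than in vehicle, and Car9 for the genes that rose in vehicle only. Capitals mark matches on either strand: CANNTG, the E-box core, in Myog and Acta1 (with CAGCTG as its special case), CATTCC and the CArG box (the SRF motif) in Acta1, CCAAT in Ccnb1, Cdk1 and Mcm5, TTTGAA in Cdk1 only, and ACGTG in Car9. TTTGAA had no match in Ccnb1 or Mcm5, and TTCCCGC, a sequence counted below, had none in Ccnb1, Cdk1 or Mcm5. The windows are Myog at chr1:134289754-134290053 (plus strand), Acta1 at chr8:123894726-123895025 (minus), Ccnb1 at chr13:100786437-100786736 (minus), Cdk1 at chr10:69352863-69353162 (minus), Mcm5 at chr8:75109259-75109558 (plus) and Car9 at chr4:43506776-43507075 (plus).
Myog: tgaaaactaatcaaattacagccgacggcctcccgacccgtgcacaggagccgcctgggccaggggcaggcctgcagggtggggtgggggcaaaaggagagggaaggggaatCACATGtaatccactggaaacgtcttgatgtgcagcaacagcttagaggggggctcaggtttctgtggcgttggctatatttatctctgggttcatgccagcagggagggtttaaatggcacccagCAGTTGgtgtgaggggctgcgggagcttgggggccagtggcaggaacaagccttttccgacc
Acta1: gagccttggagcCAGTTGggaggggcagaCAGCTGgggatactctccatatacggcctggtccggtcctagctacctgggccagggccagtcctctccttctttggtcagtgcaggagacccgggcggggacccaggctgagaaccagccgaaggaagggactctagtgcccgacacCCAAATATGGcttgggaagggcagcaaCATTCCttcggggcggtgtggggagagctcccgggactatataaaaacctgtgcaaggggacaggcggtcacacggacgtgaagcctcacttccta
Ccnb1: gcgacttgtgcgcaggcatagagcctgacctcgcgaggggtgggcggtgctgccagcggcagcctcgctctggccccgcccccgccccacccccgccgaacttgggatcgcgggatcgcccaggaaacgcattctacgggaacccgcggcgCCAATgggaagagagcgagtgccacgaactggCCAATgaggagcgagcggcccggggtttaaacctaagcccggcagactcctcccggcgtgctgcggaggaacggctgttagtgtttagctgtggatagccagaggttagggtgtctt
Cdk1: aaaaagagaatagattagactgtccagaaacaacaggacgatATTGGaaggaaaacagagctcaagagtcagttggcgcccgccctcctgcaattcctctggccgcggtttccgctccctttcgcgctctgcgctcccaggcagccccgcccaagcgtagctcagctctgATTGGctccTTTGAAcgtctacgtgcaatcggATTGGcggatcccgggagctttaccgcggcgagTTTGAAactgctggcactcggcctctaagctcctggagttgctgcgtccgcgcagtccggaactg
Mcm5: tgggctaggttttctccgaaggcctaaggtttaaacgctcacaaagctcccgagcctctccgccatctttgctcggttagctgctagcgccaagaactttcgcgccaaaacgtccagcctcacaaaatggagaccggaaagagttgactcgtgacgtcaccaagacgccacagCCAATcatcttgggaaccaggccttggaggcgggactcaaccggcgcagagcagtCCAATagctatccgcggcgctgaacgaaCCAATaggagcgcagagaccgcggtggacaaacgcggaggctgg
Car9: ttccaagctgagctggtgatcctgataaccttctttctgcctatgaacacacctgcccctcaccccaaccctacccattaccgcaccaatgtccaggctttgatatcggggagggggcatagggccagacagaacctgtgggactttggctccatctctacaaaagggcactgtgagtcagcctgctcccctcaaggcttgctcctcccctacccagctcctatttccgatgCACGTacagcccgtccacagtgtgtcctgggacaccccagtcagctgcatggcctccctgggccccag

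These letters were counted in the promoters of each gene list and in all 32851 promoters of the table. CAGCTG stood in 40.0% of the 25 thick filament promoters and 47.4% of the 19 thin filament promoters, against 16.3% of all promoters. It stood in 5.56% of the myogenic regulator promoters and 8.33% of the fusion promoters. The MEF2 motif stood in 28.0% of the thick filament promoters, 5.26% of the thin filament promoters and 0% of the acetylcholine receptor and synapse promoters, against 3.19% of all. CANNTG is common: it stood in 72.3% of all promoters and in 55.6% of those of the myogenic regulators. CCAAT stood in 72.5% and TTTGAA in 68.6% of the 51 G2 and M phase promoters, against 37.4% and 17.9% of all. CCAAT stood in 84.2% of the cholesterol synthesis promoters. TTCCCGC, an E2F-type sequence, stood in 33.3% of the 42 S phase promoters, against 4.60% of all. ACGTG stood in 54.9% of the 51 promoters of the glycolysis and hypoxia genes, against 19.6% of all. Both strands were searched, every CAGCTG is also a CANNTG, and some genes have more than 1 promoter in the table. A match is a description of the sequence only, and the motifs CANNTG, CArG and ACGTG were added after expression values had been seen. The glycolysis and hypoxia list was also drawn up after that, so its ACGTG share is a description and no independent evidence.

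The myogenic regulators are the transcription factors that start and sustain the muscle programme. On the second day under PFI-3, 8 of 16 tested members rose, 1 fell and 7 were not called (19 were in the list). The rises were 50.0% and the falls 6.25%, against 13.1% and 14.2% of all tested genes. The median log2 change of the list was 0.54, against -0.04 over all tested genes. It was only 0.21 to 0.32 when any 1 differentiation library was left out. More genes passed the low-count filter in those fits, also where a DMSO library was dropped, so the members behind these medians can differ. Myog, whose product myogenin commits the cell to terminal differentiation, was at 296 and 287 FPKM at 24 h and at 856 and 833 FPKM at 48 h. Both 48 h libraries lay far above both 24 h libraries, a 2.95-fold rise (log2 1.56, SE 0.08, adjusted p = 1.65e-08), from 0.31 and 0.61 FPKM in growth medium. Its promoter, printed above, holds CANNTG matches but no CAGCTG. Myod1, the determination factor upstream of it, went from 121 and 116 to 216 and 219 FPKM (1.86-fold, adjusted p = 0.000261). Mef2c, a MEF2 factor of maturing muscle, was almost silent at 24 h, at 0.04 and 0.07 FPKM, and reached 2.15 and 2.13 FPKM at 48 h. That is a 42.3-fold rise (log2 5.4, SE 0.37, adjusted p = 5e-07), although the 24 h libraries held only 3 and 5 counts of it. In DMSO cells Mef2c was at 10.9 and 11.2 FPKM at 48 h, so the level differed while the log2 changes, 5.4 with PFI-3 and 5.76 with DMSO, did not differ by the test (adjusted p = 0.819). Myf6, the late factor MRF4, stayed low at 1.02 and 0.75 FPKM and missed the threshold (adjusted p = 0.0667). Eya1, a transcriptional cofactor, was the member called lower, from 16.4 and 17.4 to 10.8 and 11.0 FPKM (log2 -0.61, SE 0.17, adjusted p = 0.0172). Leaving out any 1 of the 4 PFI-3 libraries ended that call, with adjusted p-values of up to 0.101.

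**Figure D1:**
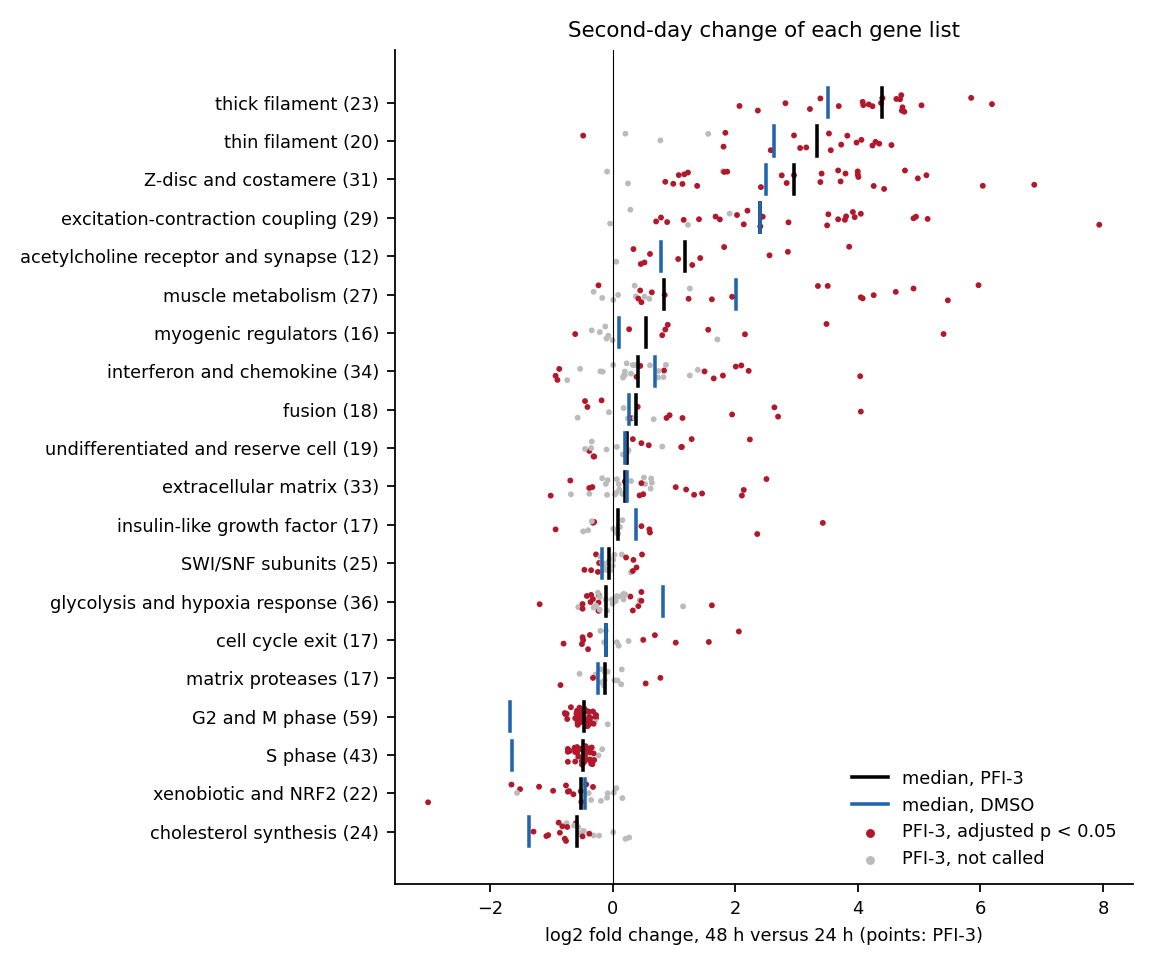
Log2 fold change from 24 h to 48 h with PFI-3 for the tested members of each gene list (points, red where called), with the list median for PFI-3 (black line) and DMSO (blue line) and the number tested in brackets; Myh4, at 10.8, lies beyond the axis. Sarcomere lists sit far to the right, while the S phase and G2 and M phase medians of PFI-3 sit near -0.5 and those of DMSO near -1.6.

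The thick filament is the myosin-based part of the sarcomere with its M-band and titin. Of all tested genes, 13.1% rose. In this list 22 of 23 tested members rose (95.7%), each at least 2-fold, and none fell (27 were in the list). The median log2 change was 4.40 with PFI-3, and 4.31 with 3 members near 0 counts at 24 h set at their lower bound and 1 left out. Their summed level went from 240 to 247 FPKM at 24 h to 4410 to 4450 FPKM at 48 h, after 16.3 to 21.6 FPKM in growth medium. In DMSO cells the sum was 668 to 692 FPKM at 24 h and 7390 to 7420 FPKM at 48 h. The PFI-3 cells thus started the day lower, rose by more on the log2 scale at 13 members and still ended lower. Over all tested genes, 7.12% had a called difference above 0. Myl2, the slow ventricular light chain, was the tested member without a call, at 0 in both 24 h libraries and at 0.27 and 0.40 FPKM at 48 h (adjusted p = 0.0928).

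Myh3, the embryonic myosin heavy chain that developing fibres make first, carried most of the myosin message. It was at 21.9 and 23.8 FPKM at 24 h and at 605 and 557 FPKM at 48 h (25.8-fold, log2 4.69, SE 0.08, adjusted p = 6.07e-12). Both pairs were close and far apart from each other. Its share of the summed heavy chain level stayed near the same value, 89.8% and 89.3% at 24 h and 87.1% and 86.8% at 48 h, while the sum itself went from 24.4 and 26.7 to 694 and 641 FPKM. Myh8, the perinatal chain, rose from 0.35 and 0.29 to 23.8 and 21.9 FPKM, and its share grew from 1.43% and 1.09% to 3.42% in both libraries. With DMSO the share of Myh8 at 48 h was 6.48% and 6.74%. Myh4, the fastest adult chain, was at 0 in both 24 h libraries and at 3.03 and 2.81 FPKM at 48 h, at least 75.1-fold higher when the 24 h group is set at a floor of 3 counts per library. Myh3, Myh2, Myh1, Myh4 and Myh8 lie next to each other on chromosome 11, between position 67078273 (the start of Myh3) and position 67308634 (the end of Myh8) in GRCm38.p6. Their exons are alike, and most libraries hold fractional counts for Myh8, Myh1, Myh2 and Myh4, so the split between these chains is uncertain.

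**Figure D2:**
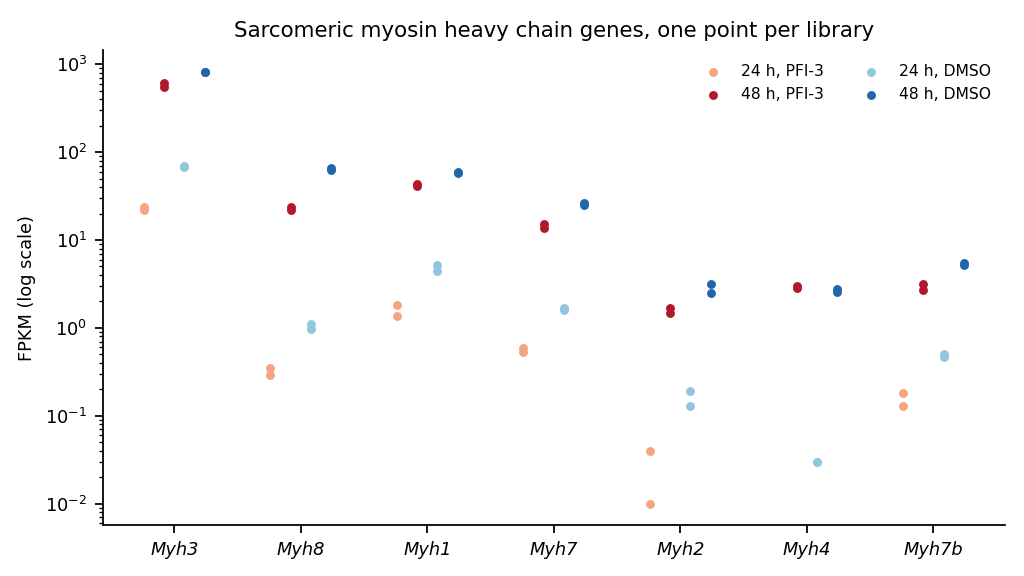
FPKM of the sarcomeric myosin heavy chain genes on a log axis, 1 point per library, for PFI-3 (orange, red) and DMSO (light and dark blue) at 24 h and 48 h; libraries at 0 (both PFI-3 libraries at 24 h for Myh4) cannot be drawn. Myh3 is the most abundant chain in every group, at 21.9 and 23.8 FPKM at 24 h and 605 and 557 FPKM at 48 h with PFI-3.

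Thin filament genes encode the sarcomeric actins, troponins, tropomyosins and their caps. Of 20 tested members 16 rose, 1 fell and 3 were not called. The rises were 80.0% and the falls 5.0%, against 13.1% and 14.2% of all tested genes. Acta1, skeletal actin, was at 159 and 164 FPKM at 24 h and at 3090 and 3130 FPKM at 48 h (log2 4.29, SE 0.18, adjusted p = 4.12e-09). Actc1, cardiac actin and the form of early myotubes, was at 223 FPKM in both 24 h libraries and at 2490 and 2590 FPKM at 48 h. The ratio of the 2 actins turned over: at 24 h Actc1 stood above Acta1 in both libraries, and at 48 h Acta1 stood above Actc1 in both. Tnnc2, fast troponin C, had the largest rise of the list, from 23.8 and 22.4 to 532 and 531 FPKM (log2 4.55, SE 0.11, adjusted p = 3.63e-11). Tnni2, fast troponin I, rose from 7.51 and 9.64 to 154 and 164 FPKM, and Tnnt3, fast troponin T, rose 3.98 log2 units. Neb, the giant ruler of the thin filament, rose 11.8-fold from 3.21 and 3.56 to 40.8 and 37.9 FPKM. Tpm3, a tropomyosin of non-muscle and slow muscle cells, was the member that fell, from 194 and 197 to 139 and 137 FPKM (log2 -0.48, adjusted p = 0.000305). Tpm1 is a case where the units part: its level was 643 and 685 FPKM at 24 h and 904 and 886 FPKM at 48 h, yet its counts gave a log2 change of 0.21 (adjusted p = 0.306).

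Z-disc and costamere genes anchor thin filaments and tie them to the membrane. Of 31 tested members 28 rose (90.3%, against 13.1% of all tested genes), and none fell (34 in the list). Actn2, the alpha-actinin that crosslinks actin at the Z-disc, had the largest rise of the genes reported, leaving aside those with mostly fractional counts. It went from 0.26 and 0.37 to 37.4 and 36.1 FPKM (118-fold, log2 6.88, SE 0.16, adjusted p = 1.5e-11). Hspb7, a small heat shock protein of striated muscle, went from 0.06 and 0.18 to 7.94 and 7.64 FPKM (log2 6.04, SE 0.25), on 2 and 6 counts at 24 h. Actn3, the fast-fibre alpha-actinin, was already at 58.0 and 54.0 FPKM at 24 h and rose 2.34-fold to 133 and 125 FPKM. The 3 tested members without a call were Fbxo32, Pdlim5 and Myot, named after their values were seen. Fbxo32, the muscle ubiquitin ligase atrogin-1, was at 11.5 and 12.0 FPKM at 24 h and at 11.3 and 10.3 FPKM at 48 h (adjusted p = 0.667), with mostly fractional counts. Pdlim5, a Z-disc scaffold, was at 24.5 and 26.5 and then 43.5 and 45.7 FPKM, with a log2 change of 0.25 in counts (adjusted p = 0.0763). Myot, which encodes myotilin, was at 0.04 and 0 FPKM at 24 h and at 0.11 and 0.04 FPKM at 48 h, where DMSO cells averaged 3.80 FPKM at 48 h.

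Excitation-contraction coupling genes turn membrane voltage into calcium release. Of 29 tested members 25 rose (86.2%, against 13.1% of all tested genes), with a list median log2 change of 2.41 (31 in the list). Cacna1s, the voltage-sensing calcium channel, was at 0.71 and 0.91 FPKM at 24 h and at 29.5 and 27.0 FPKM at 48 h (35.2-fold, log2 5.14, SE 0.14, adjusted p = 2.23e-10). Its release partner Ryr1 was at 6.04 and 6.02 FPKM and then at 33.6 and 29.4 FPKM (5.31-fold). Atp2a1, the fast calcium pump of the sarcoplasmic reticulum, went from 17.7 and 17.6 to 199 FPKM in both libraries (11.4-fold). Sensor, channel and pump thus all rose, the sensor from the lowest start. Pvalb, the calcium buffer parvalbumin, rose 3.36-fold to 4.47 and 4.44 FPKM, and without library A at 24 h this call was lost (adjusted p = 0.0561). Of 13 genes of the acetylcholine receptor and synapse, 12 were tested and 11 rose (91.7% of those tested, against 13.1% of all tested genes). Ache, which encodes the synaptic acetylcholinesterase, rose 14.5-fold at a low level, from 0.26 and 0.15 to 3.11 and 2.77 FPKM, and is named after its values were seen. Above a mean of 5 CPM, that is counts scaled to library size, Chrng, the receptor subunit of fetal muscle, rose most, from 46.3 and 48.5 to 278 and 273 FPKM (log2 2.56, SE 0.09, adjusted p = 6.51e-10). Chrne, the subunit of adult muscle, was listed at 0 in all 4 PFI-3 libraries.

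Genes of myoblast fusion rose at 9 of 18 tested members and fell at 3 (50.0% and 16.7%, against 13.1% and 14.2% of all tested genes). The fusogens were among those that rose. Mymk, which encodes myomaker, was at 122 and 121 FPKM at 24 h and at 714 and 773 FPKM at 48 h (6.22-fold, log2 2.64, SE 0.09, adjusted p = 7.46e-10). Mymx, which encodes myomerger, was at 26.9 and 27.1 FPKM and then at 101 and 104 FPKM (3.87-fold). Cav3, muscle caveolin, rose 16.6-fold to 39.3 and 41.9 FPKM. Dock1, an activator of the small GTPase Rac, fell from 12.9 and 13.5 to 9.96 and 9.06 FPKM (adjusted p = 0.00154).

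**Figure D3:**
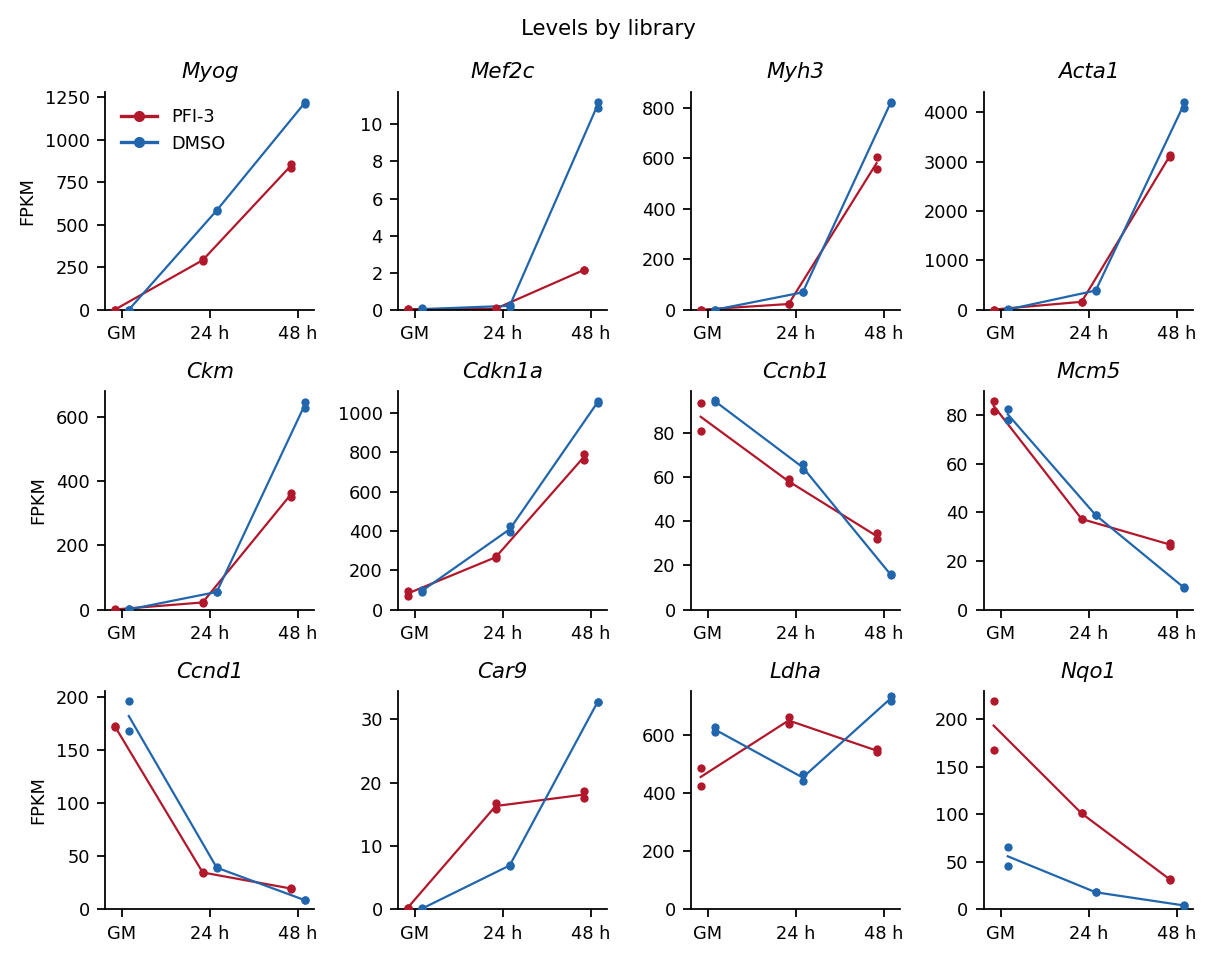
FPKM of 12 genes in each library (points) and group means (lines) in growth medium (GM), at 24 h and at 48 h, for PFI-3 (red) and DMSO (blue), with axes from 0. Muscle genes in the top row climb in both treatments and end lower with PFI-3, Ccnb1, Mcm5 and Ccnd1 end higher with PFI-3, and Car9 and Ldha climb on the second day with DMSO only.

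Cell cycle genes moved the other way, and by little. The S phase list holds genes of DNA replication, and 40 of its 43 members (93.0%) fell under PFI-3, none by 2-fold. The G2 and M phase list holds mitotic cyclins, spindle and kinetochore genes, and 56 of its 59 members (94.9%) fell, again none by 2-fold. Of all tested genes, 14.2% fell. The list medians of the log2 change were -0.48 and -0.46. Fewer falls were called in each list when any 1 differentiation library was left out. The medians of both lists then lay between -0.48 and -0.46. In DMSO cells all 43 and all 59 fell, against 23.9% of all tested genes, with list medians of -1.64 and -1.68. The difference between the treatments was itself called at 42 of the 43 S phase members and 58 of the 59 G2 and M phase members, all with the smaller fall under PFI-3, and leaving out any 1 library left 40 to 42 and 57 to 58 of these calls. The exceptions in the full fit were Rfc4 and Cdc25b, named after their values were seen. Over all tested genes, 7.12% had a called difference above 0.

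Mcm5, a subunit of the replicative helicase with the CCAAT matches printed above, was at 37.4 and 37.2 FPKM at 24 h and at 27.3 and 26.3 FPKM at 48 h (log2 -0.45, SE 0.06, adjusted p = 0.000163). In DMSO cells it went from 39.0 and 38.8 to 9.22 and 9.06 FPKM. At 24 h the treatments lay side by side, and at 48 h the PFI-3 libraries lay well above the DMSO libraries, a difference in the change of 1.57 log2 units (SE 0.09, adjusted p = 7.88e-06). Ccnb1, cyclin B1, was at 57.1 and 58.9 FPKM and then at 31.9 and 34.6 FPKM (log2 -0.78, SE 0.08, adjusted p = 2.25e-05). With DMSO it ended at 16 and 15.6 FPKM. Cdk1, the kinase it activates, went from 48.7 and 47.4 to 32.2 and 32.6 FPKM, and with DMSO from 46.2 and 45.0 to 15.0 and 16.3 FPKM. Both therefore ended the second day above vehicle. Ccna2, cyclin A2, fell from 73.1 and 75.8 to 54.8 and 54.1 FPKM with PFI-3, and the difference in its change was 1.36 (adjusted p = 3.39e-05). Mki67, the proliferation marker Ki-67, fell from 52.6 and 55.4 to 42.3 and 41.3 FPKM (log2 -0.34, adjusted p = 0.00809). That call was lost without library B at 24 h (adjusted p = 0.0756) and without library B at 48 h (adjusted p = 0.0676). Gins1, a helicase cofactor, had the largest fall of the S phase list, from 9.55 and 9.95 to 5.54 and 5.98 FPKM (log2 -0.73, SE 0.14). The summed level of the G2 and M phase genes was 3050 to 3500 FPKM in growth medium, 2410 to 2450 at 24 h and 1720 to 1730 at 48 h with PFI-3, and 863 to 871 at 48 h with DMSO.

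Genes of cell cycle exit did not move one way: 5 of 17 tested members rose, 6 fell and 6 were not called. The rises were 29.4% and the falls 35.3%, against 13.1% and 14.2% of all tested genes. Both named inhibitor genes were among those that rose. Cdkn1a, which encodes the inhibitor p21, was at 262 and 270 FPKM at 24 h and at 790 and 759 FPKM at 48 h (2.96-fold, log2 1.57, SE 0.11, adjusted p = 6.17e-07). Cdkn1c, which encodes p57, was at 46.5 and 45.5 FPKM and then at 188 and 189 FPKM (4.16-fold). With DMSO the log2 changes were 1.43 and 1.81, and neither differed from PFI-3 by the test (adjusted p = 0.626 and 0.357). The levels of both genes were higher with DMSO at both times. There Cdkn1a was at 394 and 423 and then at 1060 and 1050 FPKM, and Cdkn1c at 156 and 162 and then at 534 and 536 FPKM. Ccnd1, cyclin D1, fell from 34.8 and 34.5 to 20.2 and 18.9 FPKM (log2 -0.80, SE 0.09, adjusted p = 4.59e-05), while with DMSO it fell by 2.12 log2 units. The difference in its change was 1.32 (adjusted p = 7.66e-05).

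Muscle metabolism genes rose at 17 of 27 tested members (28 in the list) and fell at 1. The rises were 63.0% and the falls 3.7%, against 13.1% and 14.2% of all tested genes. Ckm, muscle creatine kinase, was at 22.3 and 21.6 FPKM at 24 h and at 364 and 350 FPKM at 48 h (16.5-fold, log2 4.05, SE 0.11, adjusted p = 9.21e-11). Mb, the oxygen carrier myoglobin, rose 30.0-fold from 1.92 and 2.48 to 64.1 and 64.3 FPKM, and Pygm, muscle glycogen phosphorylase, rose 10.2-fold. In DMSO cells the log2 changes of Ckm, Mb and Pygm were 3.6, 4.60 and 3.43, against 4.05, 4.91 and 3.35 with PFI-3. None of the 3 differences was called, yet the levels of all 3 were lower with PFI-3 at both times. At 48 h the DMSO libraries held Ckm at 626 and 646, Mb at 454 and 433 and Pygm at 150 and 143 FPKM. With PFI-3 Pygm was then at 75.7 and 68.2 FPKM. The list as a whole had a median log2 change of 0.84 with PFI-3 and 2.02 with DMSO. Over all tested genes, 4.97% had a called difference below 0. In this list 8 members rose less or fell under PFI-3 by the test of the difference, with none the other way. Leaving out 1 library left 5 to 7 of these 8 calls, with 5 without library A of PFI-3 at 24 h.

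Ldha, the lactate dehydrogenase subunit of glycolytic cells, was the metabolism member that fell. It was at 664 and 639 FPKM at 24 h and at 554 and 541 FPKM at 48 h with PFI-3 (log2 -0.23, SE 0.07, adjusted p = 0.0374), and at 467 and 442 and then 718 and 737 FPKM with DMSO. The libraries moved in opposite directions, and the difference in the change was -0.97 (SE 0.10, adjusted p = 0.000111). The fall under PFI-3 was lost when any 1 of the 8 differentiation libraries was left out (adjusted p from 0.0559 to 0.191) and under DESeq2 (adjusted p = 0.101), while the difference kept its call in each of these fits. A list of 36 glycolysis and hypoxia response genes was drawn up after such values had been seen, so its counts are a description and no independent evidence. With DMSO 30 of its members rose and 1 fell, where 24.2% of all tested genes rose and 23.9% fell. Under PFI-3 6 rose and 10 fell (16.7% and 27.8%, against 13.1% and 14.2% of all tested genes). The falls numbered 5 without any 1 PFI-3 library. The difference was called at 27 members, all lower with PFI-3, and at 22 to 25 when 1 library was left out. Over all tested genes, 4.97% had a called difference below 0. The summed level of the list was 11800 FPKM in both 24 h libraries and 10700 FPKM in both 48 h libraries with PFI-3. With DMSO it was 10000 to 10300 and then 13100 to 13300 FPKM.

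Car9, a carbonic anhydrase known as a target of hypoxia-inducible factor, shows the pattern at a low level. It was at 15.8 and 16.8 FPKM at 24 h and at 17.5 and 18.7 FPKM at 48 h with PFI-3 (log2 0.18, SE 0.10, adjusted p = 0.191), after 0.20 and 0.27 FPKM in growth medium. With DMSO it went from 7 and 6.84 to 32.7 and 32.8 FPKM. The PFI-3 libraries were thus the higher at 24 h and the lower at 48 h, and the difference in the change was -2.12 (SE 0.14, adjusted p = 1.25e-05). Pfkfb3, which makes the activator of phosphofructokinase, was at 5.58 and 5.34 and then 3.46 and 4.03 FPKM with PFI-3, and at 2.56 and 2.45 and then 7.88 and 6.75 FPKM with DMSO (difference -2.20, adjusted p = 0.000738).

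**Figure D4:**
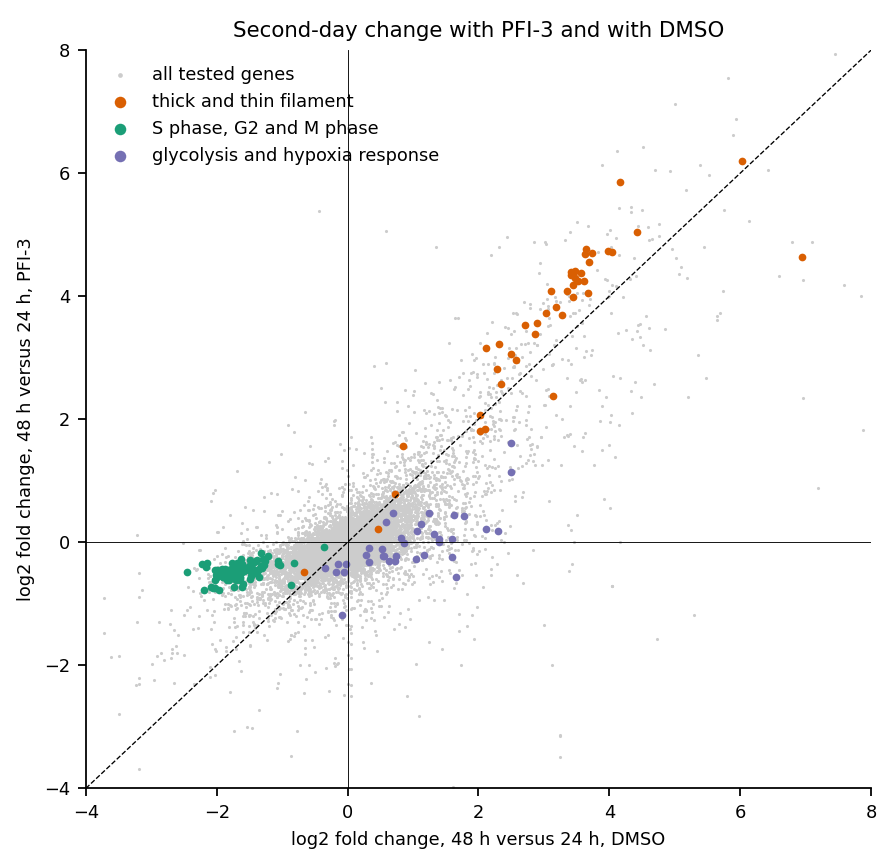
Log2 fold change from 24 h to 48 h with PFI-3 (y axis) against DMSO (x axis) for the 12545 tested genes (grey) and members of 5 lists (coloured); the dashed line marks equal change, and 18 genes lie outside the axes. Filament genes lie mostly above the line, cell cycle genes lie above it near -0.5 on the y axis, and glycolysis and hypoxia genes lie below it.

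The test of the difference between the second-day changes called 893 genes as higher under PFI-3 (7.12% of those tested) and 624 as lower (4.97%). Leaving out any 1 of the 8 differentiation libraries lowered these counts to between 519 and 567 and between 265 and 316. Among the 1326 genes that fell in both treatments, 390 had a difference above 0 and 3 below it. Among the 1402 that rose in both, the split was 89 above and 114 below. Of the genes that rose in DMSO cells, 1600 were not called under PFI-3, and the difference was called at 385 of them. In 44 genes the calls had opposite directions, 36 lower with PFI-3 and higher with DMSO and 8 the other way. Besides 4 glycolytic genes, the first kind includes Mif, a secreted cytokine, Fth1, the ferritin heavy chain, and Slc40a1, the iron exporter ferroportin, and the second kind includes Hyou1, a chaperone of the endoplasmic reticulum. These were picked after their values were seen. Log2 changes with PFI-3 and DMSO were -0.26 and 0.76 for Mif, -0.42 and 0.37 for Fth1, -0.66 and 0.85 for Slc40a1, and 0.27 and -0.57 for Hyou1.

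**Figure D5:**
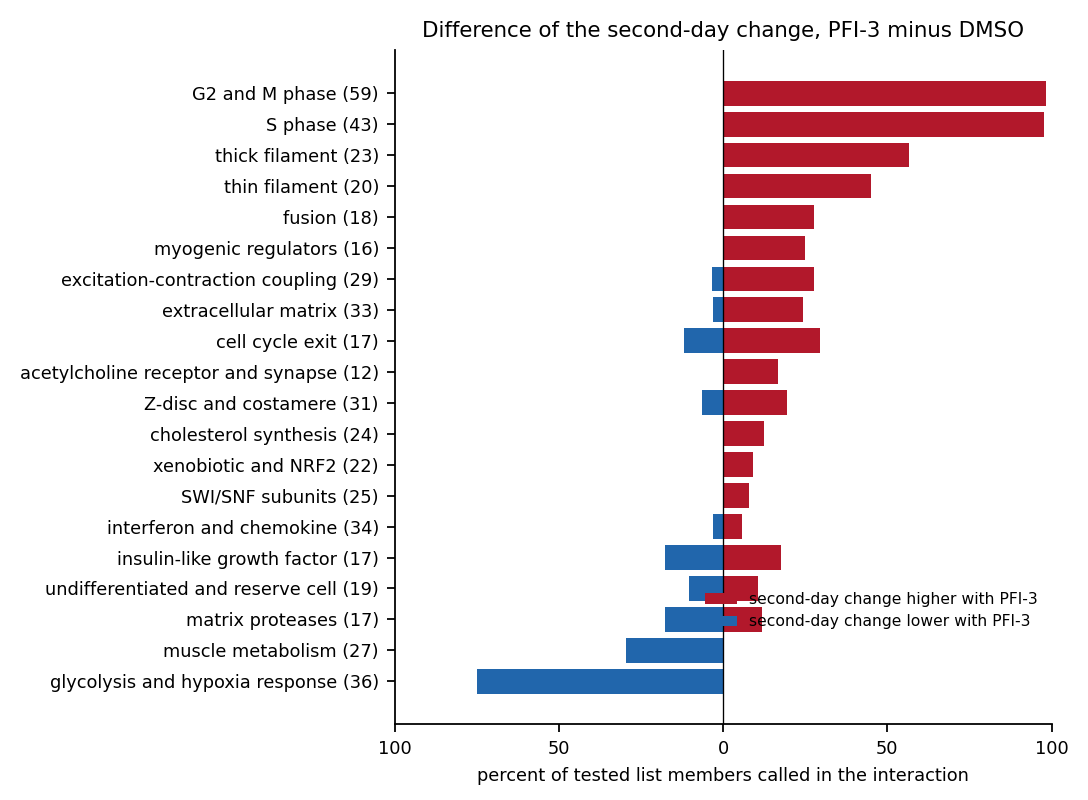
Percent of the tested members of each list (number in brackets) at which the second-day change was called higher (red, to the right) or lower (blue, to the left) with PFI-3 than with DMSO. The bars of the G2 and M phase and S phase lists reach almost 100 percent to the right, and the longest bar to the left is that of the glycolysis and hypoxia list, which was drawn up after values had been seen.

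Above a mean of 5 CPM, and with mostly whole counts, the largest positive differences were at Fgf21, Pdgfb, Fmod, Cdc6, Chaf1b and Chek1. Fgf21, a stress-responsive hormone, was at 0.73 and 1.00 FPKM at 24 h and at 24.0 and 24.1 FPKM at 48 h with PFI-3, and at 22.5 and 23.5 and then 57.5 and 54.6 FPKM with DMSO. The PFI-3 libraries at 48 h thus lay at the level that DMSO libraries had at 24 h, and the difference in the change was 3.46 (SE 0.29, adjusted p = 3.39e-05). Pdgfb, a growth factor subunit, differed by 2.01 (adjusted p = 0.00289), although on log2(FPKM + 1) the call was lost (adjusted p = 0.108). Fmod, fibromodulin, differed by 2.00, a call lost in 5 of 8 fits that left out 1 library (adjusted p of up to 0.0774). Cdc6, Chaf1b and Chek1 act in replication or its checkpoint and fell less under PFI-3. The PFI-3 fall of Cdc6 (adjusted p = 0.04) was itself lost in all 8 fits without 1 library (adjusted p from 0.057 to 0.155), and that of Chek1 without library B at 24 h or library A at 48 h (up to 0.112). Within the same limits the largest negative differences were at Igfn1, Pstpip1, Ifit1, Pfkfb3, Car9 and Mfap4. Avil, which encodes advillin and is named after its values were seen, lies below that mean and had a called difference of -5.58. Igfn1, a Z-disc protein of the immunoglobulin superfamily, reached 0.46 and 0.54 FPKM at 48 h with PFI-3 and 5.83 and 6.20 FPKM with DMSO, from at most 0.05 FPKM in every library at 24 h. Its difference of -3.84 (adjusted p = 0.0283) was lost without library B of PFI-3 at 24 h (adjusted p = 0.565) and in 5 other fits that left out a library. Pstpip1, a cytoskeletal adaptor, reached 2.29 and 2.01 FPKM with PFI-3 and 11.4 and 10.9 FPKM with DMSO (difference -2.85, adjusted p = 0.00106).

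For sarcomere genes the size of the difference depends on the scale. In counts, Myh3 differed by 1.06 (SE 0.10, adjusted p = 5.15e-05), Ttn, which encodes titin, by 0.90 and Cacna1s by 1.46, all higher with PFI-3. Actn2 differed by 0.95 in counts (adjusted p = 0.0349) but by -0.48 on log2(FPKM + 1), and Hspb7, Galnt6 and Myh8, none of them called in counts, had values of -0.56, -0.71 and -0.84 on that scale. The Actn2 difference was also lost when any 1 differentiation library was left out (adjusted p from 0.0576 to 0.248), and that of Tnnt3 in 7 of these 8 fits (adjusted p of up to 0.133). The differences of Myog (0.44, adjusted p = 0.0185) and Acta1 (0.82, adjusted p = 0.0356) were lost when any 1 of the 8 differentiation libraries was left out, with adjusted p-values of up to 0.0945 and 0.146. On log2(FPKM + 0.1) the count of thick filament members called higher with PFI-3 was 8 in place of 13 and that of thin filament members 4 in place of 9.

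Apart from sarcomere members already described, the largest rises under PFI-3 included genes of other functions. Dhrs7c, a short-chain dehydrogenase of the sarcoplasmic reticulum, went from 0.37 and 0.45 to 21.9 FPKM in both libraries (52.8-fold). Srpk3, a muscle-specific kinase of splicing factors, went from 0.25 and 0.20 to 10.1 and 9.46 FPKM (43.2-fold). Itgb1bp2, melusin, a chaperone-like partner of integrin beta 1, went from 2.35 and 2.10 to 91.5 and 94.3 FPKM (42.3-fold). At 24 h Dhrs7c and Srpk3 held 5 or 6 counts a library, which limits how well their folds are known. Galnt6, a glycosyltransferase of mucin-type sugar chains, went from 0.28 and 0.27 to 9.64 and 9.69 FPKM (35.9-fold). Each of these genes also rose in DMSO cells, by 4.15 to 5.18 log2 units.

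The largest falls under PFI-3, within the same limits of abundance and whole counts, were smaller. Avil, below that mean, fell by 3.97 log2 units (adjusted p = 1.1e-05). Itgb7, an integrin subunit best known from lymphocytes, went from 7.65 and 6.58 to 1.94 and 1.03 FPKM (4.70-fold lower, log2 -2.23, SE 0.22, adjusted p = 1.55e-05), after 35.0 and 36.5 FPKM in growth medium. Il18rap, a subunit of the interleukin 18 receptor, went from 2.15 and 2.08 to 0.49 and 0.41 FPKM. Adgrg3, an adhesion receptor, went from 9.62 and 9.87 to 2.67 and 2.74 FPKM, a fall of 1.82 log2 units against 0.65 with DMSO (difference -1.17, adjusted p = 0.00956). All 3 continued down from higher levels in growth medium. Tinagl1, a matrix protein, fell 3.40-fold, Npr3, the natriuretic peptide clearance receptor, 2.89-fold, and Slc16a11, a monocarboxylate carrier, 2.85-fold.

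Nqo1 and Gsta4 were also among the largest falls and belong to the xenobiotic and NRF2 list, the enzymes that cells induce against foreign compounds and oxidants. Nqo1, a quinone reductase, was at 101 FPKM in both 24 h libraries and at 32.1 and 31.2 FPKM at 48 h (log2 -1.65, SE 0.15, adjusted p = 5.5e-06). In growth medium it was at 168 and 219 FPKM, and with DMSO at 18.1 and 17.7 FPKM at 24 h and 3.59 and 4.50 FPKM at 48 h. Nqo1 thus fell along with vehicle and stayed above it at each stage, and the changes did not differ by the test (adjusted p = 0.329). Gsta4, a glutathione transferase, went from 185 and 188 to 63.7 and 64.8 FPKM (2.85-fold lower). Of the 22 tested members 13 fell (59.1%, against 14.2% of all tested genes) and none rose. The median log2 change of the list was -0.52, against -0.45 in DMSO cells.

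Genes of cholesterol synthesis fell at 12 of 24 members (50.0%, against 14.2% of all tested genes), with none higher. In DMSO cells 21 of 24 fell, against 23.9% of all tested genes. The count under PFI-3 moved with the fit: it was 3 to 9 without 1 library, 5 with DESeq2 and 21 in a fit of the 8 differentiation libraries. Interferon and chemokine genes rose at 10 of 34 tested members and fell at 3 (29.4% and 8.82%, against 13.1% and 14.2% of all tested genes). Irf7, a regulator of interferon genes, went from 1.19 and 1.5 to 5.29 and 6.22 FPKM (4.29-fold, adjusted p = 0.000783). It also rose in DMSO cells (log2 1.2, adjusted p = 0.04), and the changes did not differ by the test (adjusted p = 0.355). The chemokine gene Ccl7 fell under PFI-3 from 25.8 FPKM in both libraries to 12.2 and 14.5 FPKM. Leaving out 1 library left 6 to 9 rises. Ccl5, another chemokine gene, was at 51.4 and 47.7 FPKM at 24 h and at 50.5 and 59.8 FPKM at 48 h, which overlap, against 2.92 to 3.33 FPKM at 24 h with DMSO. Its replicates were far apart in growth medium, at 82.9 and 15.0 FPKM with PFI-3 and 56.1 and 0.73 FPKM with DMSO. In DMSO cells 14 of the 34 tested members of the interferon and chemokine list rose on the second day and 5 fell. Of all tested genes, 24.2% rose and 23.9% fell in DMSO cells.

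Genes of the undifferentiated state and of matrix changed unevenly. In the list of undifferentiated and reserve cell genes 7 of 19 tested members rose and 3 fell, with 0 to 2 falls when 1 library was left out. In the full fit 36.8% rose and 15.8% fell, against 13.1% and 14.2% of all tested genes. Fst, follistatin, which binds myostatin, rose 4.71-fold from 5.69 and 5.37 to 26.4 and 24.7 FPKM. Snai2, a repressor of muscle genes in myoblasts, fell from 46.3 and 49.6 to 34.9 and 37.8 FPKM (log2 -0.38, adjusted p = 0.00745), a call lost without library B at 24 h (adjusted p = 0.0774) or library A at 48 h (0.0838). Id1, an inhibitor of MyoD, rose 1.51-fold from 25 and 23.5 to 35.2 and 36.9 FPKM, where DMSO cells had a log2 change of -0.01. The difference of 0.61 was lost in 7 of 8 fits without 1 library (adjusted p of up to 0.15). Pax7, the satellite cell factor, went from 27.2 and 25.1 to 32.9 and 31.6 FPKM (adjusted p = 0.0402), and each fit without 1 library lost this call (adjusted p of up to 0.232). In the extracellular matrix list 11 of 33 tested members rose and 4 fell, with 1 to 4 falls when 1 library was left out. For this list the full fit had 33.3% higher and 12.1% lower, against the same shares of all tested genes. Postn, periostin, rose from 0.82 and 0.92 to 3.37 and 4.17 FPKM, and Col1a1, a chain of type I collagen, rose 2.04-fold from 11.2 and 10.8 to 22.2 and 21.9 FPKM. With DMSO Col1a1 was at 68.1 and 67.1 FPKM at 24 h and at 96.7 and 93.8 FPKM at 48 h, far above PFI-3 at both times. Loxl2, a lysyl oxidase, fell 2.01-fold, on fractional counts in every library and with a call lost in 3 fits without 1 library (adjusted p of up to 0.0852). Matrix proteases and their inhibitors showed 2 rises, led by Adamts2 (1.72-fold), and 2 falls, led by Mmp9 (1.80-fold, lost in each fit without 1 PFI-3 library and with DESeq2), among 17 tested members (11.8% each, against 13.1% and 14.2% of all tested genes).

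Insulin-like growth factor genes rose at 5 of 17 members and fell at 3, or at 1 to 5 and 1 to 3 when 1 library was left out. In the full fit 29.4% rose and 17.6% fell, against 13.1% and 14.2% of all tested genes. Igf2, an autocrine growth factor of differentiating myoblasts, was at 21.6 and 20.6 FPKM at 24 h and at 227 and 222 FPKM at 48 h (10.8-fold, log2 3.43, SE 0.09, adjusted p = 3.61e-11). With DMSO it went from 40.1 and 43.7 to 237 and 233 FPKM. At 48 h the PFI-3 libraries were thus close to the DMSO libraries, and the difference in the change was 0.88 (adjusted p = 0.000312). Igfbp2, a binding protein of these factors, fell from 79.9 and 82.2 to 40.5 and 43.9 FPKM (log2 -0.93, adjusted p = 0.000774), and by 2.05 log2 units with DMSO.

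Messages for the proteins that PFI-3 binds changed little. Smarca2 was at 17.2 and 17.8 FPKM at 24 h and at 16.6 FPKM in both 48 h libraries (log2 0.01, SE 0.15, adjusted p = 0.96, with a sign that differs between units). Smarca4 was at 61.5 and 58.9 and then 58.4 and 54.1 FPKM (log2 -0.07, adjusted p = 0.526), and Pbrm1 was at 23.5 and 24.9 and then 22.0 and 21.6 FPKM (log2 -0.13, adjusted p = 0.323). None of the 3 passed the test. RNA of a bromodomain protein does not report whether the domain is occupied. Smarca4 fell in DMSO cells by 0.46 log2 units, and its difference of 0.39 (adjusted p = 0.038) was lost when any 1 differentiation library was left out (adjusted p of up to 0.165). Of 25 tested SWI/SNF subunits 5 rose and 5 fell (20.0% each, against 13.1% and 14.2% of all tested genes), none by 2-fold, and leaving out 1 library left 2 to 5 rises and 1 to 4 falls. Smarcd3, the BAF60c subunit of heart and skeletal muscle, rose most, from 48.0 and 51.4 to 66.9 and 69.3 FPKM (1.39-fold, adjusted p = 0.000434), and Smarcd1, its BAF60a relative, fell most, from 30.6 and 31.1 to 21.9 and 22.1 FPKM. Both moved alike in DMSO cells, by 0.39 and -0.53 log2 units.

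The label of the cells was checked against markers. All 6 skeletal muscle markers (Myod1, Myog, Des, Ckm, Acta1, Mymk) were present and rose. Of the endothelial markers 4 of 5 are listed, and their summed level was 0.05 to 0.16 FPKM at 24 h and 0.06 to 0.20 at 48 h, with Kdr at 0. Of the leukocyte markers 2 of 5 are listed, with Ptprc at 0 and a summed level of 2.13 to 2.39 and then 1.41 to 1.47 FPKM, all from Cd68. Adipocyte markers summed to 2.37 to 3.14 and then 2.59 to 3.52 FPKM, almost all from Pparg, with Adipoq at 0, and fibroblast markers to 5.52 to 6.30 and then 6.75 to 7.01 FPKM. The osteoblast sum was 17.5 to 20.0 and then 13.7 to 14.1 FPKM, mostly from Runx2, with Sp7 at 0 in 3 of the 4 libraries. Smooth muscle markers summed to 585 to 604 and then 1440 to 1470 FPKM, which was Acta2 for the most part, an actin that early myotubes also make, while Myh11, the defining smooth muscle myosin, stayed at 0.06 FPKM or less.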

How the data were processed

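RNA from C2C12 cells was sequenced in 12 libraries, 2 for each of 6 groups, which were read from the sample titles. Per the labels' protocols, RNA was extracted with Trizol and a sequencing provider made the libraries. The submitters' processing notes name HISAT, StringTie, Cufflinks, Bowtie, RSEM and DESeq2 and the build mm10, without roles or versions. The authors deposited 1 table per library with an expected count and an FPKM value per gene, per the file headers. FPKM divides by transcript length and library size, so it can move with isoform use. Between 93.3% and 93.7% of the deposited counts were whole. A gene absent from a table was taken as 0.

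Expected counts were rounded and tested with edgeR 4.0.16 (R 4.3.3): TMM scaling, filterByExpr, 1 quasi-likelihood fit of 6 groups, Benjamini-Hochberg adjustment over 12545 genes, calls at an adjusted p under 0.05. The contrasts were 48 h against 24 h with PFI-3, the same with DMSO, and their difference. On simulated 2-fold changes in 200 of 12545 genes, 87.5% were recovered for the PFI-3 contrast and 69.5% for the difference, with 8.4% and 3.5% of calls false. Every simulated gene had the same spread in all groups, and genes other than the 200 had equal means. The deposited pairs differ in spread, with the growth-medium pairs the widest, and far more genes were called. The simulated rates are therefore no measure of recovery or false calls in these data. DESeq2 1.42.0 and limma 3.58.1 were alternatives.

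Gene lists (19, with 7 marker lists), the named genes and the members were chosen with earlier results of these data known. Named were core genes, the 8 largest rises and 8 largest falls, the 6 largest differences in each direction (mean of at least 5 CPM, whole counts in at least 50% of libraries) and the called member of each list that rose or fell most, of which 1 is not reported here. A further list and 3 motifs were added after values were seen. At these depths 3 counts were used as the floor, which covers counting error only, since reads without molecular identifiers are not independent molecules. P-values rest on a spread between libraries, 2 a group, that the fit pooled over the 6 groups and estimated with help from all tested genes. The growth-medium pairs, which varied more than the PFI-3 pairs compared, are part of it. Promoter sequences are from RefSeq (GRCm38.p6). Figures were drawn with matplotlib 3.10.9.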

Additional observations from a re-analysis of the deposited data

Results flagged for a closer look

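In the genes below, the second-day log2 change differed between PFI-3 and DMSO cells by the edgeR test of the difference itself (adjusted p under 0.05). Values are the PFI-3 change minus the DMSO change. No explanation was tested.

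Among sarcomere and muscle genes, the difference was 1.06 for Myh3, 1.11 for Myh1, 0.90 for Ttn, 0.82 for both Acta1 and Actc1, 0.86 for Tnnc2, 0.53 for Tnnt3 and 0.68 for Neb. It was 0.95 for Actn2, 0.46 for Atp2a1, 1.46 for Cacna1s, 0.78 for Mymk, 0.44 for Myog and 1.28 for Srpk3. The counts of Myh1 are fractional in most libraries. Leaving out any 1 of the 8 differentiation libraries ended the calls of Myog, Acta1, Actn2 and Srpk3 (adjusted p of up to 0.0945, 0.146, 0.248 and 0.197). The call of Tnnt3 was lost in 7 of these 8 fits (up to 0.133), and that of Atp2a1 without library B of DMSO at 24 h or at 48 h (up to 0.062).

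Among cell cycle genes it was 1.36 for Ccna2, 1.18 for Ccnb1, 0.93 for Cdk1, 1.34 for Mki67, 1.57 for Mcm5, 1.00 for Gins1, 1.97 for Cdc6, 1.88 for Chaf1b, 1.86 for Chek1 and 1.32 for Ccnd1. All of these genes had called falls in both treatments in the full fit, smaller with PFI-3. The PFI-3 falls of Cdc6, in all 8 fits without 1 library, and of Chek1 and Mki67, in 2 each, lost their call, while the differences kept theirs.

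Among secreted factors, matrix and other genes the difference was 3.46 for Fgf21, 2.01 for Pdgfb, 2.00 for Fmod, 0.88 for Igf2, 1.12 for Igfbp2, 0.47 for Col1a1, 0.61 for Id1 and 0.39 for Smarca4. Without 1 library, the call was lost in all 8 fits for Smarca4 (adjusted p of up to 0.165), in 7 for Id1 (up to 0.15) and in 5 for Fmod (up to 0.0774).

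Negative differences were -3.84 for Igfn1, -2.85 for Pstpip1, -2.71 for Ifit1, -2.20 for Pfkfb3, -2.12 for Car9, -2.11 for Mfap4, -1.17 for Adgrg3, -0.97 for Ldha and -0.76 for Fst. The value for Ifit1 (adjusted p = 0.0497) was lost in every fit that left out a differentiation library (adjusted p from 0.119 to 0.182), and so was that for Fst (0.0857 to 0.146). Igfn1 lost its call in 6 of the 8 fits (up to 0.565) and Mfap4 in 3 (up to 0.0889).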

How the results depend on the processing

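With 2 libraries a group, counts of calls followed how the spread was estimated. Fits of the 8 differentiation libraries alone called 2601 higher and 3279 lower under PFI-3, and 2117 and 2037 for the difference from DMSO. The 4 PFI-3 libraries alone gave 2933 and 2741. DESeq2 called 1082 lower, 97 of them by at least 2-fold. On log2(FPKM + 1), 360 rose and 46 fell by at least 2-fold. Leaving out 1 library gave 1051 to 1508 higher, 889 to 1558 lower, 86 to 136 lower by at least 2-fold, and 519 to 567 positive and 265 to 316 negative differences. In these fits the lone library is assumed to vary like the other groups. The letters A and B correlate at 0.036 between the PFI-3 groups over 10656 genes, so they are taken as shared letters only. With the replicate block 1674 rose and 1816 fell, and in the 8 libraries 2607 and 3295, with differences of 2130 and 2051.

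Some signs reversed, and the cause was not tested. On log2(FPKM + 1) the PFI-3 change of Smarca2 was -0.07, and the differences were -0.84 for Myh8, -0.11 for Mb, -0.48 for Actn2, -0.56 for Hspb7, -0.13 for Dhrs7c, -0.10 for Srpk3, -0.71 for Galnt6, -1.05 for Itgb7, 0.13 for Il18rap, -0.15 for Tinagl1 and -0.33 for Mmp9. On log2(FPKM + 0.1) they were -0.08 for Smarca2, -0.05 for Myh8 and -0.09 for Itgb7. Without 1 library, Smarca2 ranged from -0.05 to 0.07, and the differences ranged from -0.87 to 0.05 for Mef2c, -0.19 to 1.09 for Pvalb, -0.15 to 0.00 for Pygm, -0.12 to 0.01 for Pax7, -0.23 to 0.04 for Il18rap, -0.19 to 0.85 for Tinagl1, -0.03 to 0.08 for Snai2 and -0.29 to 0.95 for Mmp9. Over all named genes and alternatives, 55 PFI-3 values and 106 differences lost their call, 17 and 49 gained one, and 1472 and 1278 kept their direction and side of the threshold.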

Other observations

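Further list members, chosen after their values were seen, show the second day under PFI-3 in other parts of the muscle programme. Casq2, a calcium-binding protein of the sarcoplasmic reticulum, went from 5.33 and 5.87 to 167 and 164 FPKM (log2 4.91, adjusted p = 2.85e-11), and its change exceeded that in DMSO cells by 1.59 (adjusted p = 5.68e-05). Smyd1, a muscle methyltransferase, went from 3.28 and 3.09 to 35.8 and 34.8 FPKM, and Tead4, a transcription factor that binds CATTCC-type sites, from 8.67 and 8.05 to 37.8 and 36.3 FPKM. Chrna1, the alpha subunit of the acetylcholine receptor, went from 98.7 and 99.9 to 256 and 269 FPKM. All 4 genes rose in both treatments and stood lower with PFI-3 than with DMSO at both times.

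Among the glycolysis and hypoxia genes, Bnip3, a mitophagy receptor, was at 50.5 and 47.4 and then 52.6 and 58.9 FPKM with PFI-3, and at 25.9 and 25.4 and then 104 and 109 FPKM with DMSO. Pdk1, which restrains pyruvate dehydrogenase, was at 19.4 and 20.1 and then 20.3 and 19.8 FPKM with PFI-3, and at 10.5 and 11.0 and then 30.9 FPKM in both libraries with DMSO. The differences in the change were -1.90 and -1.54 (adjusted p = 4.24e-05 and 7.35e-05).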
